A study of Mus musculus with 4 samples.

Results

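The cytosolic ribosomal protein genes encode the protein parts of the ribosome. They were taken from the count table by symbol: every row named Rpl or Rps plus a number, with the letter or number endings of known family members, together with Rplp0, Rplp1, Rplp2 and Rpsa. Rows ending in -ps and the Rps6k kinases were left out. This gave 86 of the 27179 genes in the table, which lie on 19 chromosomes: 50 Rpl genes, 33 Rps genes with Rpsa among them, and 3 Rplp genes. A mean of at least 1 CPM (counts scaled to library size) over the libraries was reached by 82 of them, among 11184 genes in all, and only these entered the test. Rpl10l, Rpl3l, Rpl39l and Rpl39 did not reach it.

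ILC2s, lymphocytes without antigen receptors that make type 2 cytokines, had been sorted from the large intestine of WT C57BL/6 mice. Cells of both groups were grown for 5 days with 10 ng/mL each of the cytokines IL-33, IL-25, IL-7 and IL-2, so the libraries describe cytokine-expanded cells and not ILC2s taken straight from tissue. One group, labelled Ctrl, is called vehicle here, although the paper's RNA-Seq methods name no vehicle for it. The other then received 100 μM deoxycholic acid (DCA), a secondary bile acid. Treatment lasted 16 hours by the deposited design text and 24 hours by the paper's methods. There were 2 libraries per treatment, and nothing in the labels says whether these came from separate cultures or animals, so p-values measure only the spread between libraries, which may be technical.

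The libraries held 26564059 to 35838342 counts, except DCA replicate 2 with 244165712. Of the 18 ILC2 markers in the list used here, 17 had at least 1 CPM in every library, and the exception, Thy1, reached it in DCA replicate 1 alone. Their summed level was 20540 to 25654 CPM per library. T cell markers summed to 22.4 to 58.3 CPM with Cd4 and Cd8a at 0, and B cell markers to 37.7 to 55.1 CPM with Pax5 at 0. Macrophage and monocyte markers summed to at most 0.383 CPM, ILC3 markers to 1.48, mast cell and basophil markers to 4.70, and epithelial markers to 13.5. Mitochondrially encoded genes took 2.11% and 1.46% of the vehicle counts and 1.03% and 1.24% of the DCA counts. The part of these differences in the values given here was not tested.

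A ribosome is made of a small subunit, which reads the mRNA, and a large subunit, which joins amino acids, and each is a set of proteins held on ribosomal RNA. Nearly every protein is present in a single copy per ribosome, so cells make them in matched amounts, and proliferating cells spend much of their transcription on them. The mRNAs of these genes start with a run of pyrimidines, the terminal oligopyrimidine (TOP) tract, through which mTORC1 and the RNA-binding protein LARP1 control their translation and stability.

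The tract can be read at the annotated starts. RefSeq promoter windows on GRCm38.p6 were matched by gene identifier to 64 of the 86 genes, with 76 starts. A C followed by at least 4 further C or T bases, read on the gene's strand, began exactly at 14 of these starts (18.4%), against 823 of 32851 starts of all genes (2.51%). Allowing the run to begin up to 10 bases to either side, 42 starts held it (55.3%), against 30.7% of all starts. Some of these runs are shown because they are the sequence feature that the family is known for, although only a part of the annotated starts held one. Each line gives 30 bases before the start and the first 15 bases of the transcript, 5′ to 3′ on the gene's strand, with the run in capitals. The positions are chr11:114668550-114668594 (plus strand) for Rpl38, chr2:39005117-39005161 (minus) for Rpl35, chr14:18270972-18271016 (minus) for Rpl15, chr7:141447621-141447665 (plus) for Rplp2, chr3:90213634-90213678 (minus) for Rps27, chr4:86857353-86857397 (minus) for Rps6 and chr17:33955651-33955695 (minus) for Rps18. Rpsa, at chr9:120127736-120127780 (plus), stands last because its window holds no such run and its levels come up again among the results.
Rpl38: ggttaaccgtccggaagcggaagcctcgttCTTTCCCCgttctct
Rpl35: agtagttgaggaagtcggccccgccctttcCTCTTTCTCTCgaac
Rpl15: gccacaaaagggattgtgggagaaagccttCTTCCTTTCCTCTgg
Rplp2: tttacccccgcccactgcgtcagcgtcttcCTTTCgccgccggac
Rps27: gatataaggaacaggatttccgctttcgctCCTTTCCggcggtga
Rps6: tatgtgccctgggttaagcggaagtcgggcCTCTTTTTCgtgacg
Rps18: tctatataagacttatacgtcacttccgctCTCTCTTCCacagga
Rpsa: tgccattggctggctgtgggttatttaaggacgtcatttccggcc
In these 7 tracts the marked run is read from the first transcribed base of the RefSeq start onward. The base just before it is also C or T in each, and the counts above did not look at that base. A match describes the letters at an annotated start and says nothing of use of that start in ILC2s.

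The first question was how much of the transcriptome the ribosomal protein genes took in each treatment. Their share of all counts was 5.23% and 7.04% in vehicle replicates 1 and 2, and 5.37% and 7.24% in DCA replicates 1 and 2. In bulk libraries a change in the makeup of the cells and a change in RNA per cell cannot be told apart. The 2 treatments overlapped, and in each the second replicate was the higher one, by 1.34 times with vehicle and 1.35 times with DCA. The means were 6.14% ± 1.27 (SD, n = 2) with vehicle and 6.30% ± 1.32 (SD, n = 2) with DCA, a difference of 0.167 percentage points (two-sided exact permutation test, p = 0.667, where 0.333 is the smallest p that 2 against 2 libraries allow). The gap between replicates was thus far wider than the gap between treatments, and the difference turned to -0.735 points without vehicle replicate 1 and to -0.769 points without DCA replicate 2. Counting error is small beside these values: the 95% Wilson interval of the share was 7.03% to 7.05% in vehicle replicate 2, the shallowest library, and covers counting error only, since reads were counted without molecular identifiers.

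**Figure D1:**
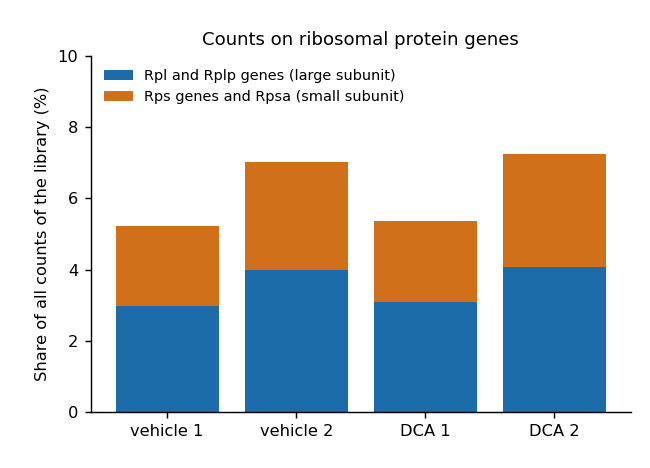
Share of all counts of a library (percent, vertical axis from 0) on the ribosomal protein genes, with 1 bar per library split into large subunit genes (blue) and small subunit genes (orange). Both second replicates stand above both first replicates, at 7.04% and 7.24% against 5.23% and 5.37%.

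The balance of the subunits varied little. For each count on an Rpl or Rplp gene there were 0.755 and 0.762 counts on Rps genes in the vehicle libraries and 0.734 and 0.773 in the DCA libraries. The DCA libraries lay on either side of the vehicle libraries. The mean ratio was 0.758 ± 0.00531 (SD, n = 2) with vehicle and 0.753 ± 0.0279 (SD, n = 2) with DCA (two-sided exact permutation test, p = 1), and the sign of the difference turned without DCA replicate 1, to 0.0149.

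Gene by gene, none of the 82 genes tested passed an adjusted p of 0.05 between DCA and vehicle (edgeR's quasi-likelihood test with Benjamini-Hochberg adjustment over 11184 genes, adjusted p = 0.999 for each). The background is that 0% of all genes tested passed. At an unadjusted p under 0.05 there were 0 ribosomal protein genes, beside 4.27% of all genes, of which 2.54% were higher and 1.73% lower with DCA. DESeq2 also called 0 ribosomal protein genes, with 126 calls among all genes, and had 1 ribosomal protein gene at an unadjusted p under 0.05, beside 7.01% of all genes with that tool. The log2 fold changes ran from -0.39 to 0.45 with a median of 0.08, beside a median of 0.01 over all genes tested. They lay above 0 for 59 of the genes and below 0 for 23, and 50.7% of all genes tested lay above 0. The median of 0.08 turned to -0.21 without DCA replicate 2 and to -0.15 without vehicle replicate 1, and was 0.35 without either of the other libraries. For single genes the direction held with each of the 4 libraries left out in turn in 4 of the 82, Rpsa, Rpl5 and Rpl4 below 0 and Rpl41 above 0, and turned at least once in the other 78. With all libraries, the median was 0.07 over the Rpl genes and 0.09 over the Rps genes. No ribosomal protein gene differed by more than 0.5 on the log2 scale in either direction, while 39.8% of all genes tested did. The genes tested start at a mean of 1 CPM, below most ribosomal protein genes, and the share among genes of similar CPM was not computed.

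**Figure D2:**
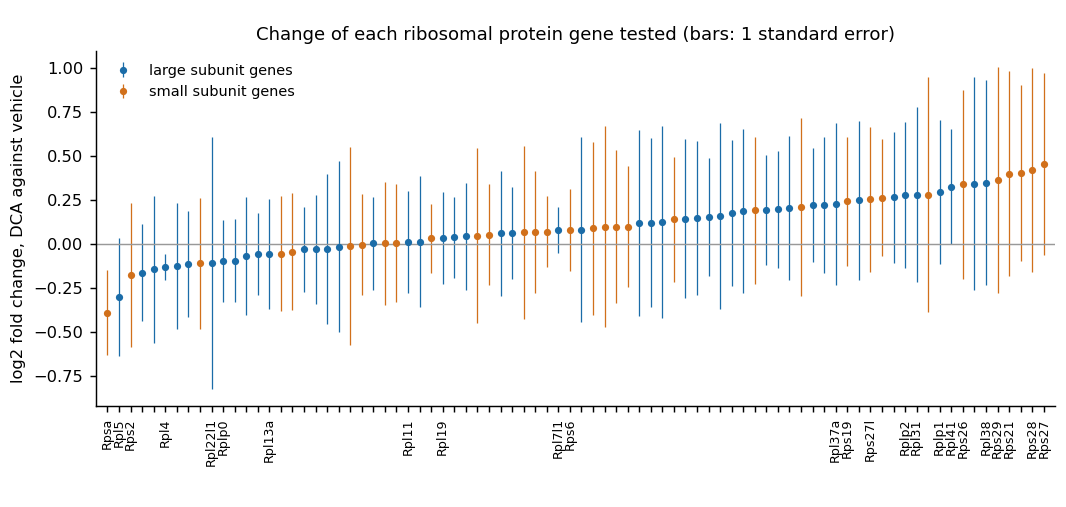
log2 fold change of DCA against vehicle (vertical axis) for each of the 82 ribosomal protein genes tested, in rising order, with some genes named, and bars of 1 standard error of the log2(CPM + 1) difference. The values run from -0.39 for Rpsa to 0.45 for Rps27.

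Here and in what follows, levels are CPM after scaling by edgeR's TMM factors, and standard errors are those of the log2 difference from the spread between libraries, while p-values come from the fitted model. In no ribosomal protein gene did both DCA libraries lie above both vehicle libraries (background 18.6% of all genes tested), and in 2 genes both lay below (background 14.7%). One was Rpsa, which encodes a small subunit protein also known as the laminin receptor. Its level was 2106 and 2751 CPM under vehicle and 1663 and 2041 CPM under DCA. The lower vehicle library was close to the higher DCA library. The log2 fold change was -0.39 ± 0.24 (SE), with the smallest p of the family (edgeR's quasi-likelihood test, unadjusted p = 0.128, adjusted p = 0.999), and it stayed between -0.60 and -0.18 when each library was left out in turn. With the replicate number as a block its unadjusted p was 0.0323.

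The other was Rpl4, a protein that lines the tunnel through which the new chain leaves the large subunit. Its levels were 1908 and 2104 CPM under vehicle and 1860 and 1799 CPM under DCA. These values sit close together: over the 4 libraries Rpl4 had the narrowest range of all 82 genes, 0.23 on the log2 scale. Its log2 fold change was -0.13 ± 0.074 (SE; edgeR's quasi-likelihood test, unadjusted p = 0.491).

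Scaled instead to the summed counts of the ribosomal protein genes, an alternative chosen after seeing the data, 13 genes had both DCA libraries above both vehicle libraries and 7 had both below, beside 13% and 13.3% of all genes tested. Rpsa was among the 7 and so was Rpl5.

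The larger differences were between replicates. In 78 of the 82 genes replicate 2 stood above replicate 1 in both treatments (95.1%), beside 26.6% of all genes tested. Within vehicle alone this held for 81 genes and within DCA alone for 78. The genes of the family moved together, so their number is not a number of independent observations. The median log2 difference between replicate 2 and replicate 1 was 0.45 in vehicle and 0.53 in DCA, while over all genes tested it was -0.019 and 0.024. Only Rpl7l1, a relative of Rpl7, was lower in replicate 2 of both treatments, at 197 and 187 CPM under vehicle and 220 and 185 CPM under DCA. The labels do not say that a replicate number marks a shared culture, animal or day. Over all genes the deviations of same-numbered libraries from their group means had a correlation of 0.0197, so the numbers were not treated as pairs. Over the ribosomal protein genes it was -0.17, a value that leaves out their common shift and so does not speak to a replicate effect shared by the whole family.

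**Figure D3:**
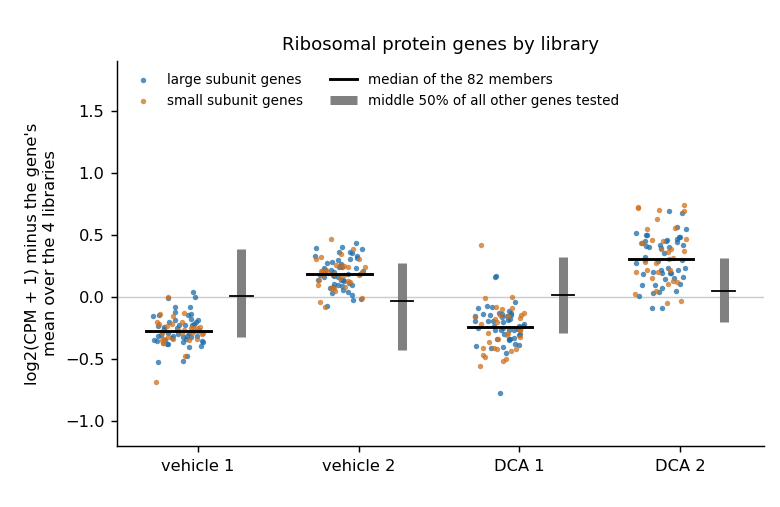
Deviation of each of the 82 ribosomal protein genes from its own mean over the 4 libraries, in log2(CPM + 1), by library, with large subunit genes in blue, small subunit genes in orange and the median as a black line. Grey bars span the middle 50% of all other genes tested. The points lie mostly below 0 in both first replicates and mostly above 0 in both second replicates.

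Between libraries the order of the genes was similar, though not the same. The Pearson correlation of log2(CPM + 1) over the 82 genes was between 0.975 and 0.993 for the 6 pairs of libraries, and over all 11184 genes between 0.872 and 0.932. The Spearman correlation over the 82 genes was between 0.955 and 0.986. These are correlations across genes of libraries made with the same method, and genes are not independent replicates. The lowest values over the 82 genes, 0.975 and 0.955, were those of the 2 DCA libraries with each other. Over all 11184 genes the same pair had the highest value, 0.932.

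DCA replicate 2 differed from the other libraries also in which ribosomal protein genes it held more of. A coding length was found for 79 of the 82 genes. Their log2 fold change with DCA fell with coding length, with a Spearman correlation of -0.80 over the 79 genes, while over 10407 other genes tested it was -0.084. The 9 genes with up to 300 nt of coding sequence had a median log2 fold change of 0.35, and all 9 lay above 0. It was 0.18 for the 28 genes of over 300 to 450 nt, 0.061 for the 19 genes of over 450 to 600 nt, -0.039 for the 20 genes of over 600 to 900 nt and -0.099 for the 3 longest. Other genes of the same length classes had medians of 0.13, 0.12, 0.050, 0.033 and 0.0099, an order in the same direction with a smaller span.

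The trend rested on 1 library. Set against each gene's mean over the libraries, the deviation in DCA replicate 2 had a Spearman correlation with coding length of -0.86, whereas in vehicle replicate 1, vehicle replicate 2 and DCA replicate 1 it was 0.30, 0.57 and 0.54. These 4 values are not independent, since the deviations of a gene add up to 0. In DCA replicate 2 the median deviation was 0.69 for genes up to 300 nt and 0.0093 for the 3 longest. Without DCA replicate 2 the correlation of the fold change with coding length was 0.17, and without any other library it lay between -0.89 and -0.64. When DCA replicate 2 was thinned at random to the total of DCA replicate 1 it was -0.80. The 0.54 of DCA replicate 1 is taken from a mean that includes DCA replicate 2, so it does not give that library's own trend. With DCA replicate 1 as the only DCA library, the fold change did not fall with coding length (0.17). The cause of the trend was not tested.

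**Figure D4:**
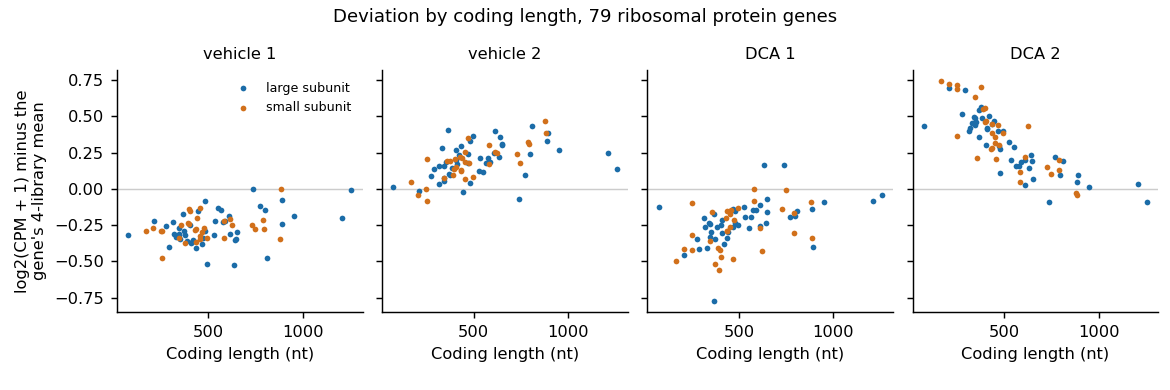
Deviation from the gene's mean over the 4 libraries, in log2(CPM + 1), against coding length in nucleotides for 79 ribosomal protein genes, with 1 panel per library and large and small subunit genes in blue and orange. The points fall with length in DCA replicate 2 (Spearman -0.86) and rise with it in the other libraries (0.30 to 0.57).

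Single short genes show the same values. Rps27, a small subunit protein with a zinc finger and the gene with the highest fold change of the family, was at 317.5 and 366 CPM under vehicle and 310 and 626 CPM under DCA. Its log2 fold change of 0.45 ± 0.52 (SE; edgeR's quasi-likelihood test, unadjusted p = 0.243) came from DCA replicate 2, for DCA replicate 1 was the lowest of the 4 libraries. Without DCA replicate 2 it was -0.14. Rps29, one of the shortest small subunit proteins, was at 385 and 489 CPM under vehicle and 334 and 790 CPM under DCA. Further genes with short coding sequences, chosen after their values were seen, went the same way: Rps28 was at 281 and 329 CPM against 254.5 and 560, Rps21 at 102 and 124 against 92.6 and 205, and Rpl38 at 178 and 205 against 151 and 336. In all of these genes the DCA libraries were the lowest and the highest of the 4. Rps27l, also short at 252 nt, did not have this order. It was at 331 and 532 CPM under vehicle and 432 and 595 CPM under DCA. Rpl41, whose coding sequence of 75 nt makes it the shortest of all, was at 1645 and 2074 CPM under vehicle and 1882 and 2777 CPM under DCA, a log2 fold change of 0.33 ± 0.33 (SE; edgeR's quasi-likelihood test, unadjusted p = 0.247). It came to 0.019 when DCA replicate 2 was left out and to 0.57 when DCA replicate 1 was.

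By role, the P-stalk comes first, the arm of the large subunit that recruits the elongation factors. Its base, Rplp0, was at 2452 and 3370 CPM under vehicle and 2624 and 2812 CPM under DCA. Rplp1, which binds to it, was at 459 and 592 CPM under vehicle and 484 and 805 CPM under DCA, and its partner Rplp2 at 324.5 and 425 against 341 and 566 CPM. The log2 fold changes were -0.10, 0.29 and 0.28, and the libraries of the 2 treatments overlapped in each. None kept its direction with each library left out: Rplp0 was at 0.15 without vehicle replicate 2, and without DCA replicate 2 Rplp1 was at -0.12 and Rplp2 at -0.14.

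Rpl5 and Rpl11 join the smallest ribosomal RNA before it enters the large subunit, and when free they bind MDM2, the ligase that marks p53 for destruction. Rpl5 was at 1119 and 1540 CPM under vehicle and 896 and 1260 CPM under DCA, a log2 fold change of -0.30 ± 0.34 (SE; edgeR's quasi-likelihood test, unadjusted p = 0.294). Rpl11 was at 461 and 621 CPM under vehicle and 470 and 617 CPM under DCA, nearly the same pair of values in each treatment. Of the p53 genes tested, 0 of 4 had an unadjusted p under 0.05. Mdm4, a partner of MDM2 that restrains p53, was at 55.4 and 24.6 CPM under vehicle and 17.2 and 22.7 CPM under DCA (edgeR's quasi-likelihood test, unadjusted p = 0.101), and Cdkn1a, a target of p53, had a log2 fold change of 0.28.

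The proteins around the exit tunnel of the large subunit were represented by 7 genes tested, Rpl4, Rpl17, Rpl19, Rpl23a, Rpl26, Rpl31 and Rpl35. Their log2 fold changes ran from -0.13 for Rpl4 to 0.28 for Rpl31, with a median of 0.12, and 6 of the 7 were above 0. Rpl19 had practically the same level in both treatments, with 927 and 1230 CPM against 979 and 1229 CPM. Around the mRNA channel and decoding site of the small subunit, Rps2, Rps3, Rps9, Rps15 and Rps23 ran from -0.18 to 0.19 with a median of 0.031. Rps2, at the mRNA entry, was at 1589 and 2796 CPM under vehicle and 1894 and 1977 CPM under DCA, so both DCA values lay between those of vehicle.

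Rps6, the small subunit protein phosphorylated by the S6 kinases downstream of mTORC1, was at 1113 and 1525 CPM under vehicle and 1338 and 1445 CPM under DCA. Here too the DCA values fell between the vehicle values, with a log2 fold change of 0.08. Loss of 1 copy of certain ribosomal protein genes causes Diamond-Blackfan anaemia, a failure of red cell production. The 11 such genes listed here, which are not all of them, had a median log2 fold change of 0.08. They ran from -0.30 for Rpl5 to 0.34 for Rps26. In all 11, replicate 2 was above replicate 1 in both treatments, beside 95.1% of the family and 26.6% of all genes tested. Rps19, the gene most often affected in that disease, was at 1083 and 1529 CPM under vehicle and 1259 and 1827 CPM under DCA.

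Some family members are relatives of another ribosomal protein gene and can replace its product. Rpl22l1, which stands in for the RNA-binding large subunit protein Rpl22, was at 92.6 and 138.5 CPM under vehicle and 60.9 and 153 CPM under DCA. Its range was the widest of the family's genes that were tested, at 1.32 on the log2 scale. Per count on Rpl22 there were 0.541 and 0.571 counts on Rpl22l1 with vehicle and 0.333 and 0.497 with DCA. Both DCA ratios lay below both vehicle ratios, which is the smallest p that the exact permutation test can give here (p = 0.333). Rps27l, a relative of Rps27 known as a target of p53, had 1.04 and 1.45 counts per count on Rps27 with vehicle and 1.39 and 0.951 with DCA, with no separation of the treatments (exact permutation test, p = 0.667). Rpl7l1 had 0.171 and 0.0863 counts per count on Rpl7 with vehicle and 0.152 and 0.101 with DCA (exact permutation test, p = 1).

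The relatives best known from testis and muscle were nearly absent. Rpl10l had 0 counts in every library, which allows up to 0.0820 and 0.115 CPM in the vehicle libraries and up to 0.0928 and 0.0125 CPM in the DCA libraries (3 counts per library). Rpl3l had 9 counts in vehicle replicate 1 and 0 in the others, and Rpl39l had 65 counts in vehicle replicate 2 and 0 in the others. Rpl39 itself, a universal large subunit protein and the parent of Rpl39l, had 0 and 16 counts with vehicle and 11 and 91 counts with DCA. These are low values for a protein of every ribosome, and 9 near-identical copies of its coding sequence, all annotated as pseudogenes, were found elsewhere in the genome. Their part in the low counts was not tested.

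To compare levels between genes, CPM was divided by the kilobases of coding sequence. On this scale Rpl41 was the highest with a mean of 27926 CPM per kb of coding sequence, a value in which reads of the untranslated parts are also divided by the very short coding sequence. Rpl37a followed with 3935 CPM per kb. Rpl13a with 161 and Rpl7l1 with 268 CPM per kb were among the lowest of the genes tested. For Rpl13a the libraries held 85.0 and 115 CPM under vehicle and 80.7 and 111 CPM under DCA. The gene was low in each of the 4 libraries.

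**Figure D5:**
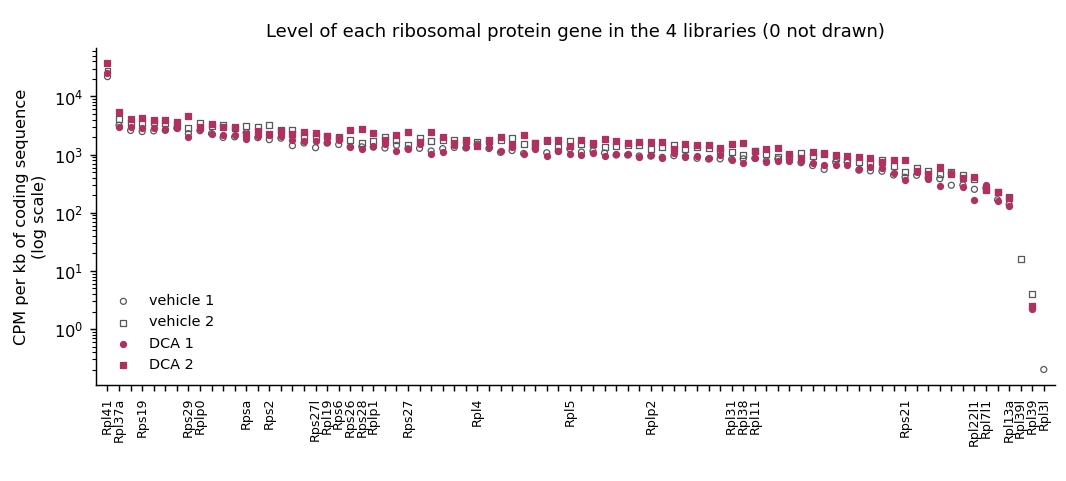
Level in CPM per kb of coding sequence (log scale) for the ribosomal protein genes with a coding length, in falling order of the mean, with some genes named, and open symbols for vehicle, filled symbols for DCA, circles for replicate 1 and squares for replicate 2. The level runs down gradually from Rpl37a (mean 3935) to Rpl13a (mean 161), with Rpl41 (mean 27926) far above, while Rpl39, Rpl39l and Rpl3l lie far below.

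Ribosomal protein mRNAs have been copied back into the genome many times. In the GENCODE M21 annotation, 77 of the 83 genes with a coding sequence had at least 1 near-identical copy elsewhere (at least 95% identity over at least 80% of the coding sequence), with a median of 5 copies and the most, 57, for Rpl21. Of 582 copies in all, 555 are annotated as pseudogenes. Reads from these genes can be split between copies, so the levels of genes with copies are uncertain. The 6 genes with none included Rpl8, Rpl39l, Rpl3l, Rps27l and Rps3. Over 79 genes the number of copies had a Spearman correlation of 0.048 with the level per kb, and Rpl13a, at the low end, had 3 copies. The 35 rows of the table named as ribosomal protein pseudogenes held 0.267% to 0.313% as many counts as the ribosomal protein genes.

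Some ribosomal proteins have symbols outside the rule. Rpl36al, a relative of Rpl36a, was at 416 and 514 CPM under vehicle and 558 and 682 CPM under DCA. Both DCA libraries lay above both vehicle libraries, with a log2 fold change of 0.42 ± 0.21 (SE; edgeR's quasi-likelihood test, unadjusted p = 0.117, adjusted p = 0.999). Fau, made as a fusion of a ubiquitin-like protein with a ribosomal protein, had a log2 fold change of 0.34, and Rack1, the scaffold protein on the small subunit, one of -0.12. In each of these genes replicate 2 was again above replicate 1 in both treatments, beside 26.6% of all genes tested.

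The genes that build ribosomes did not pass the test either. Among 13 genes for the synthesis of ribosomal RNA, the median log2 fold change was -0.15. Of the 13, 1 had an unadjusted p under 0.05, beside 4.27% of all genes tested. It was Taf1a, a subunit of the selectivity factor of RNA polymerase I. Taf1a had a mean of 29.7 ± 6.12 CPM (SD, n = 2) under vehicle against 11.9 ± 3.06 CPM (SD, n = 2) under DCA. Its log2 fold change was -1.32 ± 0.32 (SE, edgeR's quasi-likelihood test, unadjusted p = 0.0417, adjusted p = 0.999). Among 12 genes of ribosomal RNA modification and the nucleolus the median was -0.13, with 0 at an unadjusted p under 0.05. Npm1, an abundant nucleolar chaperone, was at 1228 and 1988 CPM under vehicle and 947 and 1282 CPM under DCA. In 10 of these 12 genes replicate 2 was above replicate 1 in both treatments, beside 26.6% of all genes tested.

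Small subunit assembly, with 28 genes, had a median log2 fold change of -0.034. Rcl1, a factor of early processing, was at 70.5 and 41.5 CPM under vehicle and 96.3 and 106 CPM under DCA (log2 fold change 0.86 ± 0.38, SE; edgeR's quasi-likelihood test, unadjusted p = 0.0466, adjusted p = 0.999). Large subunit assembly, with 29 genes, had a median of -0.12, and Rrp1b was at 76.6 and 61.0 CPM under vehicle and 120 and 113 CPM under DCA (log2 fold change 0.76 ± 0.17, SE; edgeR's quasi-likelihood test, unadjusted p = 0.0298, adjusted p = 0.999). Rcl1 and Rrp1b were the only genes of their lists at an unadjusted p under 0.05, 1 of 28 and 1 of 29, beside 4.27% of all genes tested. In neither did the libraries overlap, as in 33.3% of all genes tested.

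Regulators of TOP mRNAs, 12 genes tested, had a median log2 fold change of 0.22 with 0 at an unadjusted p under 0.05. Eif4ebp1, the translation repressor that mTORC1 phosphorylates, was at 82.1 and 89.2 CPM under vehicle and 97.5 and 132.5 CPM under DCA. Larp4, an RNA-binding protein of the LARP family, was at 123 and 79.1 CPM under vehicle and 68.1 and 76.5 CPM under DCA. In both genes, picked for their small p, the libraries of the treatments did not overlap. In the whole list 4 genes had both DCA libraries above and 2 had both below, beside 18.6% and 14.7% of all genes tested. The 7 RNA polymerase II factors listed for promoters of ribosomal protein genes had a median of -0.20, with 0 at an unadjusted p under 0.05, and Ncl among them was at 1198 and 1296 CPM under vehicle and 973 and 1196 CPM under DCA.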

How the data were processed

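RNA-Seq libraries were made by the authors as full-length cDNA with a SMART-Seq HT kit and sequenced as paired 150-bp reads. Per the labels and the paper's methods, reads were trimmed with Cutadapt 1.9 and aligned to mm10 with HISAT2 2.2.1. The deposited table holds whole-number read counts per gene, although its name refers to FPKM. The counting tool, annotation and strand setting are not given in the sources used here, so genes with copies or overlapping genes are uncertain. Rows without a symbol numbered 1275 and were kept.

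Counts were scaled with TMM and tested with edgeR 4.0.16 (quasi-likelihood, two-sided, Benjamini-Hochberg) in R 4.3.3, where the 4 libraries averaged 1 CPM or more. The test was checked on simulated counts. Standard errors come from log2(CPM + 1). Coding lengths are from GENCODE M21, copies from BLAST 2.17.0 and starts from RefSeq GRCm38.p6. Alternatives were DESeq2 1.42.0, other scalings and filters, a replicate block, thinning and leaving out each library. Scaling to the summed counts of the ribosomal protein genes was added after seeing the data.

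The genes and lists were chosen with earlier results of these data known. The genes named are those without overlap between treatments, the 3 highest and 3 lowest per kb, the 3 with the widest and the 3 with the narrowest range, members of role lists, and in other lists those with the smallest p. Of 16 listed genes of ribosomal RNA synthesis, 13 were matched. Some genes are not reported here.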

Additional observations from a re-analysis of the deposited data

How the results depend on the processing

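With 2 libraries per treatment and one of them far deeper, only differences larger than the spread between replicates could be called. Ribosomal protein genes past an adjusted p of 0.05 numbered 0 under all 13 alternatives. At an unadjusted p under 0.05 (edgeR unless named) there was 1 with DESeq2, 1 with no filter, 1 with the replicate number as a block, and 0 to 2 when each library was left out. The shares of all genes were 7.01%, 4.78%, 4.02% and 0.956% to 13.5%. The gene under the block was Rpsa (edgeR's quasi-likelihood test, unadjusted p = 0.0323). Over all genes, calls numbered 126 with DESeq2, 36 with no filter, and 0 to 20 when each library was left out, with 20 reached without vehicle replicate 1. The cause was not tested. The replicate block changed no call, and gave a median log2 fold change of 0.065 for the ribosomal protein genes. That median ran from -0.21 to 0.35 with each library left out, from -0.21 to 0.37 for Rpl genes and from -0.22 to 0.37 for Rps genes.

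The difference in the share of counts ran from -0.769 to 1.10 percentage points with each library left out, reversing to -0.735 without vehicle replicate 1 and to -0.769 without DCA replicate 2. The Rps to Rpl ratio difference ran from -0.0246 to 0.0149, reversing to 0.0149 without DCA replicate 1. Scaled to the summed counts of the ribosomal protein genes, which takes out the shift between replicates, 20 of them did not overlap between treatments, 13 above (background 13% of all genes) and 7 below (background 13.3%), with median coding lengths of 411 and 793.5 nt. On that scale Rpsa had a log2 fold change of -0.43 (edgeR, unadjusted p = 0.109) and Rpl5 of -0.35 (unadjusted p = 0.204), and the median of all genes moved from 0.01 to -0.045. The count of genes without overlap was not run with a library left out, since 1 library against 2 is not comparable. Among 64 named genes, 33 values moved by more than the spread between replicates, all with a library left out, and 799 did not.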
